A study of Mus musculus with 9 samples.

Results

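Microglia that carried the common variant of human TREM2 were compared with microglia that carried no TREM2 of either species. The comparison took the 3 arrays of the first genotype, called CV here, and the 3 arrays of the second, called KO, which made 6 of the 9 arrays of the study. All 6 mice were 8.5 months old, carried the 5XFAD transgenes, a set of mutant human genes that causes amyloid to build up in the brain, and were deficient in mouse TREM2. On that background CV mice expressed human TREM2 in its common form, and KO mice expressed no human TREM2. The other 3 mice expressed the R47H variant and entered the fit only through the estimate of spread and of sex. Each genotype had 1 female, mouse 1, and 2 males, mice 2 and 3, each named in the labels as a separate mouse. No mouse without 5XFAD and none with mouse TREM2 entered the comparison, and the sources used here give neither the promoter nor the copy number nor the founder line of the human gene. CD45+ CD11b+ cells were sorted from dissociated brains, and biotin-labelled material was made from 2 ng of total RNA per mouse. That gate takes in other myeloid cells beside microglia.

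A probe set is a group of array probes summarised to 1 log2 expression value. Of 35556 probe sets 21789 carried a single gene symbol, and these stood for 19938 genes, with the brightest probe set chosen where a gene had more than 1. The 10795 genes whose mean over the 9 arrays reached 5.31, the median of all probe sets, were tested. Differences below are CV minus KO on the log2 scale, with the standard error (SE) of a linear model (limma) and n = 3 mice per genotype. A gene is called when its Benjamini-Hochberg adjusted p over all genes tested was under 0.05. Values by mouse are listed in the order mouse 1, 2 and 3. Differences can be compared between genes, but levels of different probe sets cannot.

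TREM2 is a receptor on the surface of microglia that binds lipids, lipoproteins and amyloid and signals through the adaptor protein Tyrobp, the kinase Syk and the enzymes downstream of it. Around amyloid plaques, microglia are known to pass from a resting, homeostatic state to a state called disease-associated microglia (DAM). An early stage of that change is known to proceed without TREM2, and a later stage, with genes of lipid metabolism and phagocytosis, is known to need it.

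**Figure D1:**
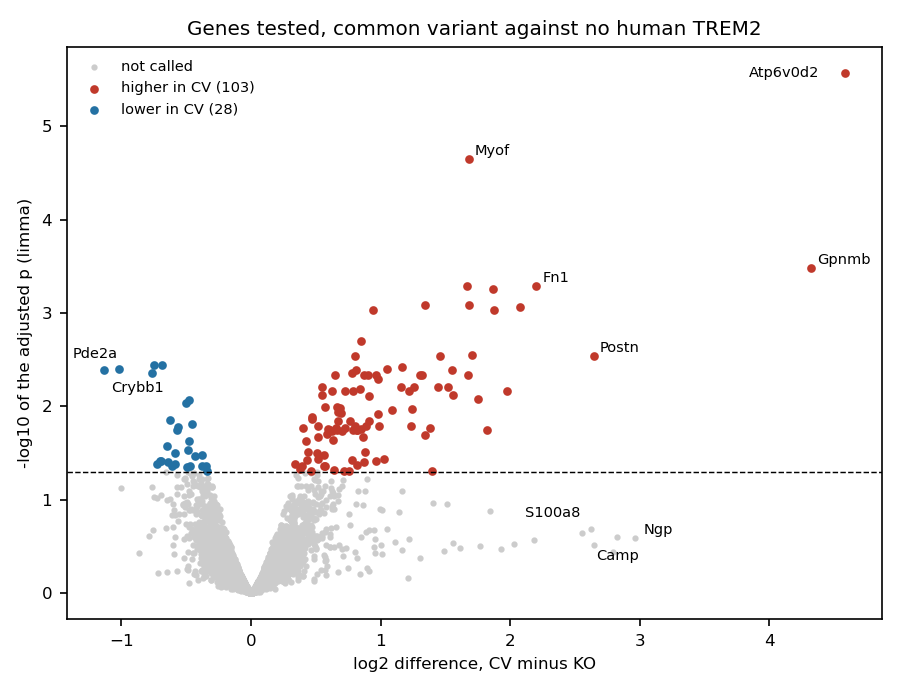
Each point is 1 of the 10795 tested genes, with the log2 difference CV minus KO on the horizontal axis and the −log10 of the limma adjusted p on the vertical axis. The 103 genes called higher are red, the 28 called lower are blue, and the dashed line marks an adjusted p of 0.05. Atp6v0d2 (4.59) and Gpnmb (4.32) lie far to the right, while S100a8, Camp and Ngp have differences of 2.63 to 2.97 and lie below the line.

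With the common variant 131 of the 10795 genes were called, 1.21% of those tested. Of these 103 were higher (0.954%) and 28 lower (0.259%). Counts of calls in the gene lists below are to be read beside these shares of all genes tested. The called genes included a proton pump subunit, carriers and hydrolases of lipids, matrix proteins, receptors of phagocytes and proteins of the cell cortex among the higher ones, and Pde2a, Crybb1, Mlph, Rab27a and Slc40a1 among the lower ones. The size of the change was lopsided as well. At least a 2-fold change was reached by 35 genes called higher and by 2 called lower, and the median size was 0.84 for the higher and 0.58 for the lower genes. Over all genes tested 45.0% of differences lay above 0 and 55.0% below, with a median of -0.02. The values of CV and KO mice did not overlap for 1506 genes (14.0% of those tested), 637 with CV higher (5.90%) and 869 with CV lower (8.05%). Among the called genes this held for 127, all but Cd72, Mir505, Prnp and Bphl.

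The sorted cells carried the defining genes of microglia in all 6 mice. Cx3cr1, the fractalkine receptor, read 12.33, 12.40 and 12.40 in KO and 12.28, 12.26 and 12.24 in CV, and the purine receptor P2ry12 read 11.14, 11.12 and 11.38 in KO and 10.83, 11.14 and 11.07 in CV. Of the 9 tested microglia markers 8 stood below 0 (median -0.16), 0 were called by limma and 6 had an unadjusted p under 0.05. For 6 of the 9 all CV mice lay below all KO mice, against 8.05% of all genes tested. The mouse Trem2 probe set (10445781) stood at -0.01 (95% interval -0.18 to 0.15), and this set may or may not match the deleted mouse sequence or the human gene, so it does not check the genotype. The adaptor Tyrobp stood at 0.07 (interval -0.10 to 0.23). KO mouse 3 differed from the other KO mice in genes of neutrophils, the short-lived granulocytes of blood that also pass a CD45+ CD11b+ gate. S100a8, a calprotectin subunit, read 7.84, 9.37 and 12.74 in KO and 12.22, 12.79 and 12.83 in CV. KO mouse 3 was thus level with the CV mice, and KO mice 1 and 2 lay below. The mean level of the 18 neutrophil genes on the array was 5.35, 5.72 and 8.14 in KO and 7.44, 8.19 and 8.0 in CV. Of these 13 were tested. All 13 differences were above 0 (median 2.03), 0 were called by limma and 11 had an unadjusted p under 0.05, and without KO mouse 3 the median was 3.11 and 11 were called. Leaving out the KO mouse nearest to CV raises a difference by construction, here and for genes below in which mouse 3 was that mouse. Without KO mouse 2 the median of the 13 was 1.30 and 0 were called. The part of neutrophils in the results below was not tested, and 2 further fits are given without a conclusion on it. Without KO mouse 3 the comparison called 172 genes, 101 of them among the 131. With a neutrophil score of each array added to the model it called 23 genes, all among the 131, and all 131 kept their sign. Over the 131 genes the median size of the difference was 0.76 without the score and 0.73 with it, while the median SE went from 0.11 to 0.14. Single genes moved further in both directions, such as Plp2 from 1.82 to 1.08, Cybb from 1.35 to 0.79 and Gpnmb from 4.32 to 5.03. The score was -1.48, -1.11 and 1.30 in KO and 0.60, 1.36 and 1.16 in CV, so except in KO mouse 3 it followed genotype.

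**Figure D2:**
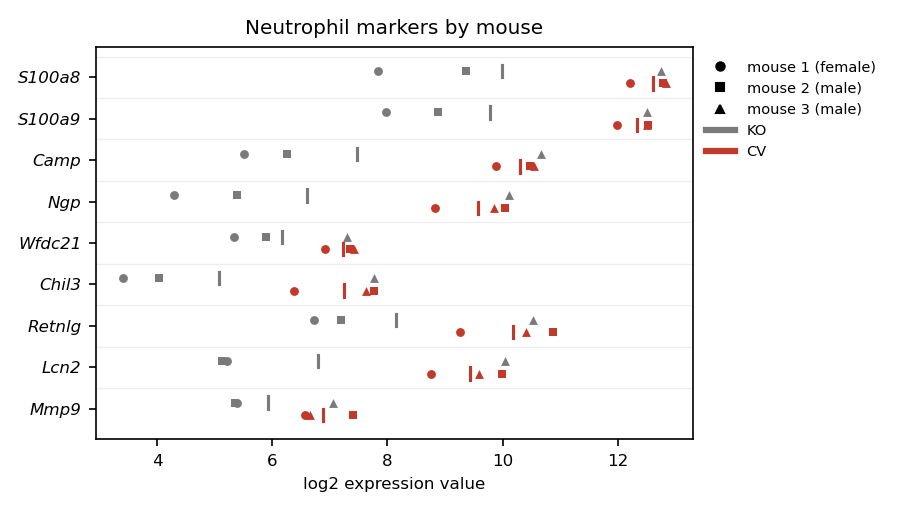
Log2 expression value (horizontal axis) of 9 neutrophil genes (rows) in each mouse, with KO mice in grey and CV mice in red, mouse 1 as a circle, mouse 2 as a square and mouse 3 as a triangle, and a bar at the mean of each genotype. KO mice 1 and 2 lie to the left in each row, and KO mouse 3 lies among or near the CV mice, as for S100a8 at 12.74 against 12.22 to 12.83.

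**Figure D3:**
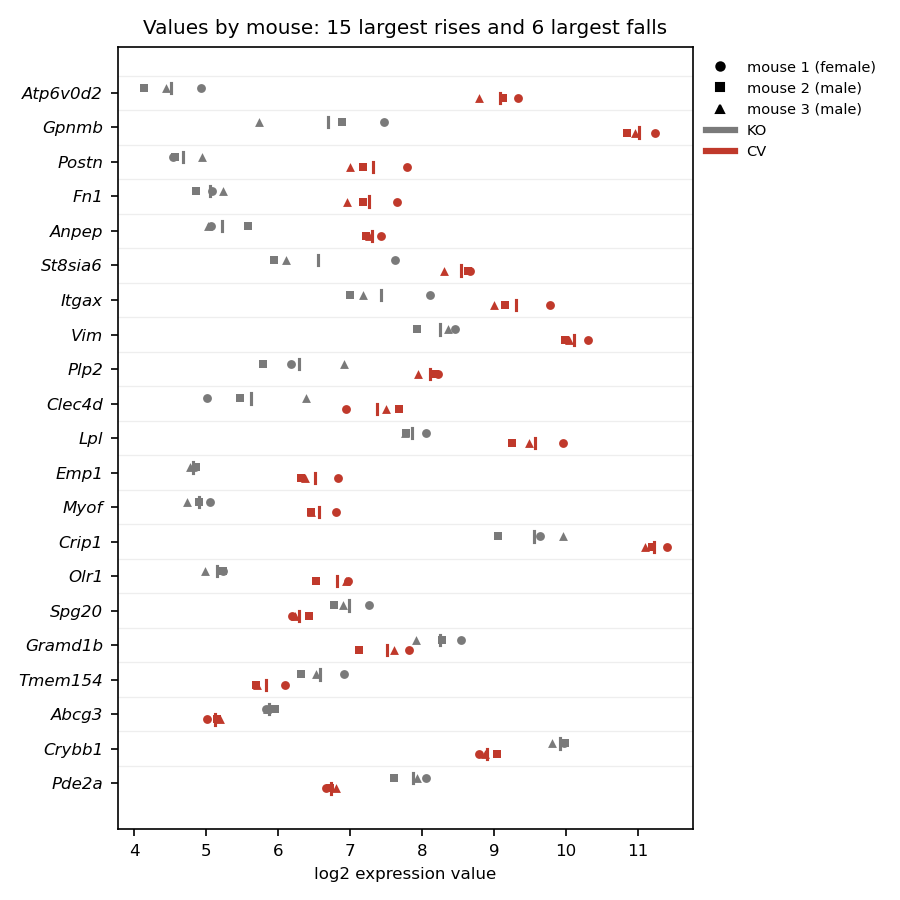
Log2 expression value (horizontal axis) of the 15 genes with the largest called rises and the 6 with the largest called falls (rows), with KO mice in grey, CV mice in red and a bar at the mean of each genotype. No row has overlapping groups, and the widest gaps are those of Atp6v0d2 (3.86) and Gpnmb (3.39).

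The genes with the largest differences were Atp6v0d2 and Gpnmb. Atp6v0d2 (probe set 10511779) encodes the d2 subunit of the membrane sector of the vacuolar proton pump, a form best known from osteoclasts and macrophages. It read 4.93, 4.13 and 4.45 in KO and 9.34, 9.13 and 8.79 in CV, so that the lowest CV mouse stood 3.86 above the highest KO mouse. The difference was 4.59 ± 0.14 SE, a 24.0-fold rise (limma adjusted p = 2.7e-06). Of the 18 tested proton pump genes Atp6v0d2 alone was called, and the median of the 18 was -0.02. Its sister subunit Atp6v0d1 stood at -0.21 (interval -0.41 to -0.02), and for 17 of the 18 genes the 95% interval lay within 0.5 of 0. Gpnmb (10538187), a transmembrane glycoprotein of lysosomes and melanosomes, read 7.47, 6.89 and 5.74 in KO and 11.24, 10.86 and 10.97 in CV. Its KO mice spread widely, with mouse 3 lowest, its CV mice lay close together, and the groups stood apart by 3.39. Gpnmb rose 20.0-fold (4.32 ± 0.27, adjusted p = 0.000332). It rose by 3.94 without KO mouse 3 and by 5.03 with the neutrophil score, and both values were called. Of the 3 tested transcription factors of the MiT/TFE family, known to drive lysosomal genes and Gpnmb, 0 were called and 0 had an unadjusted p under 0.05 (limma). Mitf stood at 0.10 (interval -0.13 to 0.32), Tfe3 at 0.06 (-0.09 to 0.21) and Tfeb at 0.00 (-0.14 to 0.14), although the deposited Tfeb value was identical on all 6 arrays.

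Other genes of lysosomes and endosomes moved singly. Rab7b, a small GTPase of late endosomes, read 5.92, 5.22 and 5.96 in KO and 7.68, 7.14 and 6.96 in CV, without overlap, and rose by 1.56 ± 0.20 (limma adjusted p = 0.00759, and 0.118 with the neutrophil score, at 1.19). Ehd1, which recycles endocytosed receptors, rose by 0.65 ± 0.07, and Tmbim1, a membrane protein of lysosomes, by 0.55 ± 0.07. Of 44 tested genes of lysosomal enzymes and membrane proteins 0 were called by limma (14 at an unadjusted p under 0.05), with 33 differences below 0 and a median of -0.06. For 42 of the 44 the interval lay within 0.5 of 0. The smallest p of the list belonged to the aspartic protease Ctse, at 0.51 ± 0.10 (adjusted p = 0.0548), while the protease Ctso stood at -0.31 ± 0.08 and the peptidase Tpp1 at -0.29 ± 0.08. Among 14 tested genes of osteoclasts and multinucleated giant cells, a list that shares Atp6v0d2, the other called gene was the membrane-bound metalloproteinase Mmp14 (0.62 ± 0.08).

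Lipid handling was the next group. Of 30 tested genes of lipid uptake, storage and efflux 5 were called higher, against 0.954% of all genes tested, and 0 lower. The list median was -0.01, so that the change lay in single members. Lpl, the lipase that frees fatty acids from lipoproteins, read 8.05, 7.78 and 7.76 in KO and 9.96, 9.25 and 9.49 in CV. All CV mice lay above all KO mice by at least 1.20, and the difference was 1.70 ± 0.16 (3.26-fold, limma adjusted p = 0.0028). Olr1, the receptor for oxidised low-density lipoprotein, read 5.23, 5.23 and 4.99 in KO and 6.97, 6.53 and 6.94 in CV and rose 3.17-fold (1.66 ± 0.12, adjusted p = 0.000512). Its KO mice lay near the array median, and its groups did not overlap. The fatty acid carriers Fabp5 and Fabp3 rose by 1.22 ± 0.15 and 0.90 ± 0.10. For Fabp5 the values were 8.77, 8.14 and 7.68 in KO and 9.54, 9.40 and 9.32 in CV. Ch25h, which makes 25-hydroxycholesterol, rose by 1.24 ± 0.17, from 6.49, 5.64 and 6.16 to 7.66, 6.87 and 7.49. With the neutrophil score Lpl, Olr1 and Fabp5 kept their calls, Fabp3 stood at 1.00 (adjusted p = 0.0547) and Ch25h at 1.00 (adjusted p = 0.185).

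Enzymes that build or burn fatty acids changed in both directions. Acaca, the carboxylase that commits carbon to fatty acid synthesis, rose by 0.78 ± 0.09 (limma adjusted p = 0.00439), from 6.59, 6.34 and 6.42 to 7.46, 6.97 and 7.27. Fads1, a desaturase of polyunsaturated fatty acids, fell by 0.61 (SE 0.11, adjusted p = 0.0436), from 8.34, 8.28 and 7.96 to 7.62, 7.73 and 7.39. They were the only 2 called of 19 tested genes of fatty acid synthesis and oxidation. Outside the list, Hadh, a dehydrogenase of mitochondrial beta-oxidation, fell by 0.38, Thrsp, a nuclear protein linked to lipogenesis, fell by 0.43, and the acyl-CoA thioesterase Acot9 rose by 0.57. Pla2g2d, a secreted phospholipase, read 6.67, 6.48 and 6.42 in KO and 7.50, 7.25 and 7.38 in CV and rose by 0.85 ± 0.08 (adjusted p = 0.00198). Gramd1b, which carries cholesterol from the plasma membrane to the endoplasmic reticulum, fell by 0.73. Of 19 cholesterol synthesis genes 0 were called (6 at an unadjusted p under 0.05), and 16 stood above 0 (median 0.10). The sterol sensor Insig1 came nearest at 0.51 ± 0.10 (adjusted p = 0.051), with 8.17, 8.22 and 8.41 in KO and 8.83, 8.66 and 8.83 in CV, and it was called without KO mouse 3 (0.58, adjusted p = 0.0402). The synthesis enzymes Msmo1 and Cyp51 stood at 0.62 ± 0.13 and 0.64 ± 0.15.

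Genes of the extracellular matrix and of the enzymes that remodel it were called in 5 of 30 tested, all higher. The share called higher over all genes tested was 0.954%, and the list median was 0.17. Postn encodes periostin, a matrix protein of wounds. It read 4.53, 4.56 and 4.94 in KO and 7.79, 7.18 and 7.01 in CV and rose 6.26-fold (2.65 ± 0.26, limma adjusted p = 0.00292). Fn1, which encodes fibronectin and is also on the monocyte list, read 5.08, 4.85 and 5.24 in KO and 7.65, 7.17 and 6.96 in CV and rose 4.61-fold (2.20 ± 0.15, adjusted p = 0.000512). For both genes the KO mice lay below the array median and the CV mice well above it, with gaps of 2.07 and 1.72 between the groups. Postn had means of 4.68 in KO and 5.13 in R47H, and Fn1 of 5.06 and 4.91. These lay below the mean level required for testing, so both genes were tested only because their CV arrays were high. Plau, the urokinase that starts plasmin formation, rose by 0.97 ± 0.11 from 9.28, 9.05 and 9.34 to 10.41, 9.95 and 10.20. Sulf2, which trims sulfate from heparan sulfate, rose by 0.99 ± 0.15 and Mmp14 by 0.62 ± 0.08. The crosslinking enzyme Lox stood at 1.16 ± 0.26 (adjusted p = 0.0808), with KO mice at 6.35, 5.71 and 4.80. Fn1 alone of these kept its call with the neutrophil score, while Postn stood at 2.44 (adjusted p = 0.0769). Outside the list, Mamdc2, a secreted proteoglycan, rose by 0.87 ± 0.10, the secretory-pathway kinase Fam20c by 0.87 ± 0.14, Xylt1, which starts glycosaminoglycan chains, by 0.57 ± 0.08, and Sh3pxd2b, an adaptor of podosomes, by 0.97 ± 0.17.

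Adhesion receptors followed. Itgax encodes CD11c, the integrin alpha chain that marks plaque-associated microglia, and read 8.11, 7.0 and 7.18 in KO and 9.78, 9.15 and 9.0 in CV. KO mouse 1 was the highest KO mouse and still lay 0.89 below the lowest CV mouse. Itgax rose 3.67-fold (1.88 ± 0.16, limma adjusted p = 0.000937) and Itga4, an integrin chain of blood leukocytes, by 0.88 ± 0.15. They were the 2 called of 13 tested integrin genes (list median -0.01), and Itgam, the CD11b chain used in the sort, stood at -0.30 ± 0.06 (adjusted p = 0.0738) with values of 10.79 to 10.92 in CV and 11.02 to 11.26 in KO. Cd44, the hyaluronan receptor, read 5.96, 5.29 and 6.17 in KO and 7.53, 7.23 and 7.22 in CV and rose by 1.52 ± 0.19. The adhesion G protein-coupled receptor Adgre5 rose by 1.40 ± 0.27 (adjusted p = 0.0491, and 0.513 with the neutrophil score, at 0.96), the adhesion molecule Alcam by 0.79 ± 0.12 and the plexin Plxnc1 by 0.64 ± 0.12.

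Some of the genes that rose share short letters at their start sites. The promoter windows of Gpnmb, Itgax and Olr1, among the larger rises in phagocyte and lipid genes, each held the AP-1 motif TGANTCA, the letters bound by Fos and Jun proteins, and are shown for that reason. They are from RefSeq on GRCm38.p6, run 5′ to 3′ in the direction of the gene from 250 bases before to 50 after its start, and have the motif in capitals. Gpnmb lies on the plus strand (chr6:49036268-49036567), Itgax on the plus strand (chr7:128129300-128129599) and Olr1 on the minus strand (chr6:129507116-129507415).
Gpnmb: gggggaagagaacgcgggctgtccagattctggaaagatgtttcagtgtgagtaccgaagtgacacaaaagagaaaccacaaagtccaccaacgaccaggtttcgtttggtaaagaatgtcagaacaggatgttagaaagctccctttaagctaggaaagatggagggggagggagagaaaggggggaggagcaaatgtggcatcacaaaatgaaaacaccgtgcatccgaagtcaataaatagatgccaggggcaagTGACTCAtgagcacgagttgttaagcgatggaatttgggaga
Itgax: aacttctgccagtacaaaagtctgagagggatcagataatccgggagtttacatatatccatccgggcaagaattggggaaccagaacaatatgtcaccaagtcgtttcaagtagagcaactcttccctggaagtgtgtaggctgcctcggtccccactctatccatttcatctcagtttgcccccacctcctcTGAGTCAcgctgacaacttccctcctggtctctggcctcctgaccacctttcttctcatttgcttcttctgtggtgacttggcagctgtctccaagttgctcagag
Olr1: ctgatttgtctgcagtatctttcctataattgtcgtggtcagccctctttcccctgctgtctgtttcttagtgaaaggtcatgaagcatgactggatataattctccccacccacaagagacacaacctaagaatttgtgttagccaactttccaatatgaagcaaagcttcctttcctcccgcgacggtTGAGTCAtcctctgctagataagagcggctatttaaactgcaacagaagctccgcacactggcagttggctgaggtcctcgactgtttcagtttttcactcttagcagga
The first base of the motif stood at position 9 after the start in Gpnmb, and at -56 in Itgax and -60 in Olr1. Both strands were searched, the motif reads alike on both, and a window could hold more than 1 motif. RefSeq windows were found for 98 of the 131 called genes. Of the 101 windows of genes called higher 12.9% held the motif, in 12 genes, against 5.07% of 11034 windows of tested genes and 7.81% of all 32851 windows. The 12 were Anxa2, Cybb, Emp1, Gpnmb, Igf1, Itgax, Lmna, Ms4a7, Olr1, Prnp, Slamf7 and Tank. The E-box CACGTG and the M-box TCATGTG, letters bound by MiT/TFE factors, were in 5.94% and 1.98% of the windows of higher genes, against 10.2% and 2.08% of those of tested genes. The other motifs searched were the PU.1 core GAGGAA, the CRE TGACGT and the GC box GGGCGG. They were in 35.6%, 4.95% and 46.5% of the windows of higher genes, against 27.2%, 11.6% and 61.9% of those of tested genes. In the 24 windows of genes called lower these 3 motifs had shares of 33.3%, 4.17% and 45.8%, close to those of the higher genes. The AP-1 motif, the E-box and the M-box were in 4.17%, 16.7% and 0% of these 24 windows. No test was made of these shares, and a match of letters does not show that a factor bound there. The immediate early genes, which include the Fos and Jun genes, held 0 called of 26 tested (6 at an unadjusted p under 0.05, median 0.12), with Junb at 0.27 ± 0.08 and Egr2 at 0.67 ± 0.15 (limma adjusted p = 0.0887).

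The cytoskeleton and the cell cortex held 8 called genes of 35 tested, all higher, against 0.954% of all genes tested, beside a list median of 0.06. Vim, the intermediate filament protein vimentin, read 8.45, 7.93 and 8.37 in KO and 10.31, 9.99 and 10.05 in CV, a clean separation of 1.53, and rose 3.64-fold (1.87 ± 0.13, limma adjusted p = 0.000549). Crip1, a small LIM protein, rose by 1.68 ± 0.19 from 9.64, 9.06 and 9.96 to 11.40, 11.20 and 11.09. Capg, which caps actin filaments, rose by 1.05 ± 0.11 from 8.42, 7.87 and 7.80 to 9.43, 8.96 and 8.86. The others were the scaffold proteins Ahnak (0.91 ± 0.12) and Iqgap1 (0.79 ± 0.10), lamin A (Lmna, 0.75 ± 0.14), the motor Myo1e (0.72 ± 0.11) and the actin binder Tagln2 (0.52 ± 0.08). With the neutrophil score Vim, Crip1 and Capg kept their calls. Further genes of this kind outside the list were Fmn1, a formin that nucleates actin (0.98 ± 0.11), Gas2l3 (0.94 ± 0.08), Ahnak2 (0.80 ± 0.08), the GTPase Rhoc (0.72 ± 0.14) and Gas7 (0.56 ± 0.10).

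Myof encodes myoferlin, a protein of membrane repair and fusion, and had the second smallest adjusted p of all genes. It read 5.06, 4.90 and 4.73 in KO and 6.81, 6.46 and 6.45 in CV and rose 3.20-fold (1.68 ± 0.07, limma adjusted p = 2.27e-05, and 0.000465 with the neutrophil score, at 1.77). The Myof mean was 4.89 in KO and 5.36 in R47H. The mean over its KO and R47H arrays lay below the level required for testing, so Myof was tested only because its CV arrays were high. Of the 19 tested annexin and S100 genes Anxa2, Anxa4 and Anxa5 were called, at 0.84 ± 0.10, 0.73 ± 0.09 and 0.70 ± 0.11. Anxa2 read 6.54, 6.34 and 6.42 in KO and 7.47, 7.29 and 7.05 in CV. The list median was 0.70, but the list holds neutrophil genes such as S100a8, and without KO mouse 3 its calls went from 3 higher and 0 lower to 9 higher and 1 lower (S100b). S100a10, the partner of annexin A2, stood at 1.01 ± 0.26 (adjusted p = 0.13) and was called at 1.38 without KO mouse 3. Small membrane proteins were called too, among them Plp2 (1.82 ± 0.28), Emp1 (1.69 ± 0.13), Emp3 (0.59 ± 0.09) and Fxyd5, a regulator of the sodium pump (1.26 ± 0.15). Emp1 read 4.84, 4.85 and 4.78 in KO and 6.83, 6.32 and 6.37 in CV, whereas Plp2 read 6.18, 5.79 and 6.92 in KO, where mouse 3 was highest, and 8.22, 8.18 and 7.95 in CV. The Emp1 means in KO (4.82) and R47H (4.77) lay below the mean level required for testing. Emp1 was thus tested only because its CV arrays were high. With the neutrophil score Emp1 kept its call at 1.63 and Plp2 stood at 1.08 (adjusted p = 0.0792).

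Receptors by which phagocytes sense microbes, dying cells and other leukocytes changed in part. Clec7a, or dectin-1, read 9.06, 8.21 and 8.53 in KO and 9.81, 9.49 and 9.75 in CV and rose by 1.09 ± 0.15 (limma adjusted p = 0.0111). Clec4d, a receptor for mycobacterial glycolipids that neutrophils and monocytes also carry, read 5.01, 5.47 and 6.39 in KO and 6.95, 7.68 and 7.50 in CV. It rose by 1.75 ± 0.23 (adjusted p = 0.00835), by 2.06 without KO mouse 3 and by 1.16 with the neutrophil score, and each of these values was called. These were the 2 called of 13 tested C-type lectins, with 12 above 0 and a list median of 0.11. Clec12a stood at 0.81 ± 0.20 (adjusted p = 0.11) and was called at 1.07 without KO mouse 3. Lgals3, or galectin-3, which binds damaged lysosomes and glycoproteins, rose by 1.17 ± 0.12 from 8.44, 8.45 and 8.18 to 9.74, 9.36 and 9.47. It was the only galectin called of 6, and Lgals9 stood at -0.19 ± 0.09. Axl, a receptor kinase that recognises dying cells through Gas6, read 9.01, 8.04 and 7.98 in KO and 9.63, 9.09 and 9.38 in CV. Its groups were separated by only 0.08, and its rise of 1.02 ± 0.18 (adjusted p = 0.0365) lost the call without KO mouse 3 (0.94, adjusted p = 0.0857). Its relative Mertk stood at -0.15 ± 0.08 and the ligand Gas6 at -0.22 ± 0.09.

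Receptors of the lymphoid and checkpoint kind were among the called genes. Pdcd1, which encodes PD-1, read 7.0, 6.81 and 6.39 in KO and 8.50, 7.98 and 8.11 in CV and rose by 1.46 ± 0.14 (limma adjusted p = 0.00286, and 0.0137 with the neutrophil score, at 1.71). Slamf7 rose by 1.38 ± 0.21, Slamf9 by 0.44 ± 0.08 and Cd48, a ligand of the same receptor family, by 0.43 ± 0.08. Cd72, an inhibitory receptor, rose by 0.87 ± 0.16 although KO mouse 1 (7.77) lay above CV mouse 2 (7.74). Ms4a7, a tetraspan protein of macrophages, rose by 0.82 ± 0.15 and was the only MS4A gene called of 8. St8sia6, a sialyltransferase, read 7.63, 5.95 and 6.10 in KO and 8.66, 8.64 and 8.30 in CV. The female KO mouse lay well above the KO males, and the rise of 1.98 ± 0.25 was called (adjusted p = 0.00693). With the neutrophil score it stood at 2.07 with a wider SE of 0.37 (adjusted p = 0.0927). Anpep, the aminopeptidase CD13, read 5.06, 5.58 and 5.03 in KO and 7.43, 7.22 and 7.26 in CV and rose 4.22-fold (2.08 ± 0.17, adjusted p = 0.00086).

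Secreted signals and their receptors were called in both directions. Flt1, a receptor for vascular endothelial growth factors that is also a marker of endothelium, read 5.92, 5.37 and 5.32 in KO and 7.26, 6.88 and 7.11 in CV and rose by 1.55 ± 0.17 (limma adjusted p = 0.00413). The endothelial marker Pecam1 stood at -0.56 ± 0.16 and Vwf at 0.03. Nrp1, a co-receptor of the same factors, rose by 0.39, Igf1, insulin-like growth factor 1, by 0.69 ± 0.09, Bmp2 by 0.67 ± 0.10 and the pseudoreceptor Bambi by 0.61 ± 0.10. The growth factor Tgfa fell by 0.35. Igf1 read 8.04, 7.60 and 7.52 in KO and 8.66, 8.19 and 8.37 in CV. Dkk2, a Wnt antagonist, rose by 0.63 ± 0.10 from 5.30, 5.27 and 5.15 to 5.77, 5.93 and 5.92, and Fzd8, a Wnt receptor, fell by 0.56. Of 31 tested chemokines and receptors 2 were called. Cxcl14 rose by 1.44 ± 0.18 from 6.58, 5.73 and 6.30 to 8.0, 7.61 and 7.33. Cxcr4, the receptor of the chemokine Cxcl12, rose by 1.30 ± 0.15 from 9.58, 8.92 and 9.47 to 10.67, 10.59 and 10.62. Ccl8 stood at -1.01 ± 0.22 (adjusted p = 0.0755), with 6.81, 7.23 and 6.25 in KO and 5.72, 5.89 and 5.65 in CV, and was called at -1.27 without KO mouse 3.

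In TREM2 signalling itself 1 of 31 tested genes was called, and the list median was 0.02. Fgr, a Src-family kinase of myeloid cells, read 6.79, 6.15 and 6.20 in KO and 7.99, 7.76 and 7.41 in CV and rose 2.54-fold (1.35 ± 0.11, limma adjusted p = 0.000814). For 28 of the 31 genes the 95% interval lay within 0.5 of 0. Syk stood at -0.02 (interval -0.22 to 0.17), the phosphatase Inpp5d at -0.18 (-0.35 to -0.02) and the signalling protease Malt1 at 0.32 (0.14 to 0.50, adjusted p = 0.124). Cybb, the catalytic chain of the phagocyte NADPH oxidase, was the only oxidase gene called of 7. It read 8.56, 7.96 and 9.02 in KO and 9.94, 9.79 and 9.85 in CV and rose by 1.35 ± 0.21 (adjusted p = 0.0202, and 0.101 with the neutrophil score, at 0.79). Tank and Tnip1, which restrain NF-kB signalling, rose by 1.16 ± 0.14 and 0.55 ± 0.07. The groups of Tnip1 were tight, at 6.70, 6.78 and 6.72 against 7.32, 7.27 and 7.25.

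Bhlhe40, a repressor of the basic helix-loop-helix family, was the only gene called of 29 tested microglial and myeloid transcription factors. It read 6.57, 5.75 and 6.37 in KO and 7.92, 7.33 and 7.39 in CV and rose by 1.32 ± 0.15 (limma adjusted p = 0.00461). Outside that list, Nab2, a corepressor of EGR proteins, rose by 0.34, while Zeb1, a zinc finger repressor, fell by 0.46, the thyroid hormone receptor Thra by 0.48 and the DNA demethylating enzyme Tet1 by 0.58. Sall1, a factor that keeps microglial identity, stood at -0.09 ± 0.06. The potassium channels Kcnj2 and Kcna3 rose by 0.89 ± 0.13 and 0.46 ± 0.09.

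Mir155 and Mir505 were the called genes that encode microRNAs, both at 0.82 ± 0.13. Their mature RNAs, from RefSeq on GRCm38.p6, are shown because they carry the targeting information, with the seed, bases 2 to 8, in capitals. The Mir155 hairpin lies at chr16:84714140-84714204 on the plus strand, and it is not known here whether the probe sets read the precursor or the mature RNA.
mmu-miR-155-5p: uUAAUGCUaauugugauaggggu
mmu-miR-155-3p: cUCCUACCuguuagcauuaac
mmu-miR-505-3p: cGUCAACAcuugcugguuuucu
mmu-miR-505-5p: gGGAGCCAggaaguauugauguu
The 4 seeds are all different. Mir155, known as an inducer of inflammatory gene programs in macrophages, read 6.15, 5.56 and 5.62 in KO and 6.58, 6.54 and 6.66 in CV. The CV mice lay close together and 0.39 above the highest KO mouse (limma adjusted p = 0.0179, and 0.0532 without KO mouse 3). Mir505 read 6.79, 7.12 and 7.60 in KO and 7.55, 8.31 and 8.10 in CV, so that CV mouse 1 lay below KO mouse 3.

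The 28 lower genes changed less and formed few groups. Pde2a, a phosphodiesterase that degrades cyclic AMP and cyclic GMP, read 8.06, 7.62 and 7.93 in KO and 6.67, 6.73 and 6.81 in CV and fell by 1.14 (SE 0.12, limma adjusted p = 0.00413). It was the only gene called of 14 tested cyclic nucleotide enzymes, and it kept its call without KO mouse 3 and with the neutrophil score (-1.29). Crybb1, a crystallin of resting microglia, read 9.97, 9.99 and 9.80 in KO and 8.80, 9.05 and 8.87 in CV and fell by 1.02 (SE 0.11, adjusted p = 0.00402). Its groups lay 0.76 apart. Mlph and Rab27a, which link melanosomes and other lysosome-related organelles to the myosin motor, both fell. Mlph went from 8.41, 8.26 and 8.24 to 7.76, 7.49 and 7.61 (-0.69, SE 0.07), and Rab27a from 8.85, 8.65 and 8.73 to 8.25, 8.15 and 8.08 (-0.58, SE 0.10).

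Slc40a1, or ferroportin, which exports iron, read 7.83, 8.01 and 8.02 in KO and 7.37, 7.55 and 7.51 in CV and fell by 0.48 (SE 0.06, limma adjusted p = 0.00848). Slc39a12, a zinc importer, fell by 0.69 (SE 0.12). They were the 2 called of 179 tested solute carriers, and the list median was -0.03. That share was near the 1.21% of all genes tested called in either direction and above the 0.259% called lower. Without KO mouse 3 the list had 1 called higher and 1 called lower. Abcg3, an ATP-binding cassette protein, fell by 0.76 (SE 0.08) from 5.83, 5.95 and 5.85 to 5.01, 5.14 and 5.19, and Tcn2, which carries vitamin B12, by 0.34. Other falls were those of Tmem154 (-0.75), Spg20 (-0.70), which encodes spartin, Rapsn (-0.64), an anchor of acetylcholine receptors, the quinone reductase Cryz (-0.57), Tstd3 (-0.50), Gamt (-0.50), the last enzyme of creatine synthesis, Mpdu1 (-0.49), Gpr155 (-0.47) and the hydrolase Bphl (-0.38). Cd79b, a chain of the B cell receptor that microglia also transcribe, fell by 0.65 from 7.98, 7.61 and 7.55 to 7.34, 6.96 and 6.90. Of the other B cell genes Ighm stood at 0.10 and Blnk at -0.03.

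The remaining called genes belonged to none of these groups. Higher were the chloride intracellular channel protein Clic4 (0.67 ± 0.10), the cytidine deaminase Apobec1 (0.66 ± 0.09), the secreted protein Wfdc17 (0.81 ± 0.12), Vasn, which binds transforming growth factor beta (0.51 ± 0.09), the ubiquitin ligase Marchf3 (0.59 ± 0.09), and Phlda1, Glipr1, Etl4, Tmem178, Itpripl2, Vat1, Ptchd1, Ripor2, Arhgap26, Fam214a, Rassf4, Ss18l2 and H2aj, which rose by 0.38 (Arhgap26) to 0.91 (Etl4). The Marchf3 mean was 5.20 in KO and 5.39 in R47H. The mean over these KO and R47H arrays lay below the level required for testing, so Marchf3 was tested only because its CV arrays were high. Tmem176a and Tmem176b, membrane proteins of antigen-presenting cells encoded side by side on chromosome 6, rose by 0.69 ± 0.10 and 0.63 ± 0.10. Further neighbours called in the same direction were Slamf7 and Cd48 on chromosome 1, Vim and St8sia6 on chromosome 2, Clec7a and Olr1 on chromosome 6, and Kcna3 and an unnamed predicted gene on chromosome 3. The 4 unnamed predicted transcripts among the called genes were 3 higher and 1 lower.

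**Figure D4:**
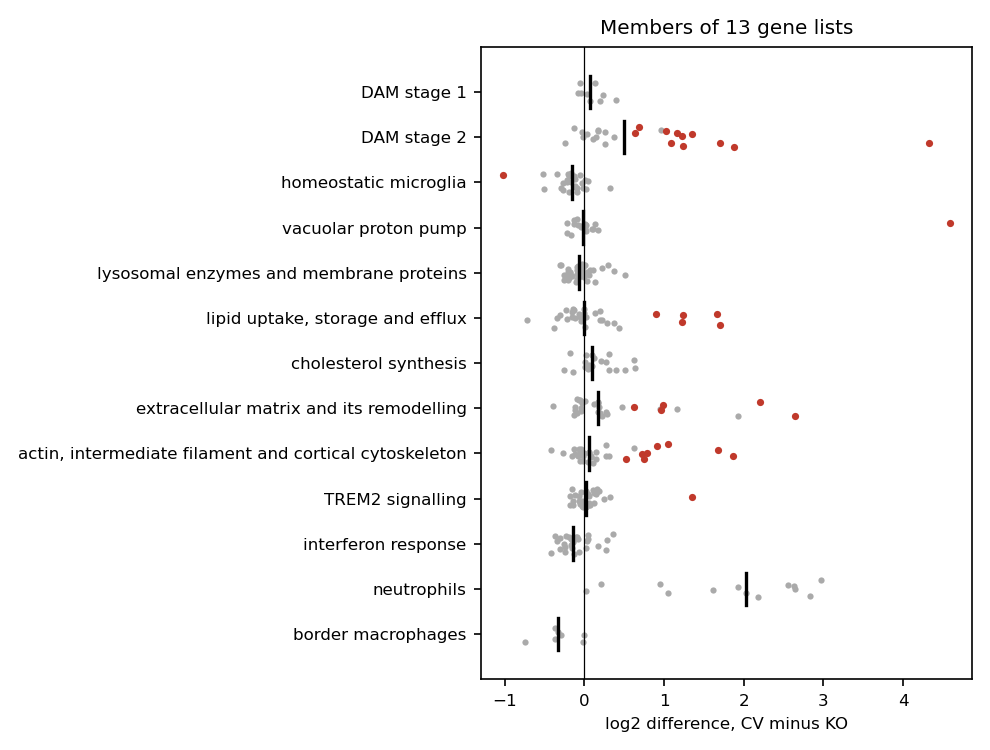
Each point is a tested gene of 1 of 13 lists (rows), placed by its log2 difference CV minus KO, with called genes in red and a bar at the median of the list. DAM stage 2 has 11 called genes and a median of 0.50, whereas most other lists centre near 0 with single genes far to the right, such as Atp6v0d2 in the proton pump row.

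Among lists of microglial state the later DAM stage held 11 called genes of 24 tested, all higher, against 0.954% of all genes tested. The list median was 0.50 against -0.02 over all genes. The 11 were Gpnmb, Itgax, Lpl, Lgals3, Fabp5, Igf1, Ch25h, Clec7a, Cybb, Dkk2 and Axl, all given above. Without KO mouse 3 the count was 9, and with the neutrophil score 4. The early DAM stage held 0 called genes of 9 tested (3 at an unadjusted p under 0.05), with a median of 0.07 and 8 intervals within 0.5 of 0. Apoe, the lipoprotein made by activated microglia, read 13.33, 13.10 and 12.92 in KO and 13.40, 13.22 and 13.31 in CV, with a difference of 0.19 (interval 0.02 to 0.37, limma adjusted p = 0.33). Lyz2, or lysozyme, stood at 0.39 ± 0.12 (adjusted p = 0.198). Of 28 tested homeostatic genes 24 stood below 0 (median -0.16), and 14 had an unadjusted p under 0.05 (limma). For 16 of the 28 all CV mice lay below all KO mice, against 8.05% of all genes tested. Crybb1 was the only call. The adhesion receptor Adgrg1 came next at -0.51 ± 0.10 (adjusted p = 0.0582), with 10.45, 10.59 and 10.31 in KO and 10.12, 9.91 and 9.79 in CV, followed by Siglech at -0.35 ± 0.07 (adjusted p = 0.0715). Tmem119, a membrane protein of resident microglia, stood at -0.27 ± 0.08. For 23 of the 28 the interval lay within 0.5 of 0.

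Lists of immune activation held no calls, and their precision differed. Of 29 interferon response genes limma called 0 (0 at an unadjusted p under 0.05) and 21 stood below 0 (median -0.15), but for only 7 of them the interval lay within 0.5 of 0. The 31 genes of cytokines, the inflammasome and NF-kB targets had 0 calls (14 at an unadjusted p under 0.05), a median of 0.25 and 12 such intervals. In that list the chemokine Cxcl16 stood at 0.58 ± 0.13 (limma adjusted p = 0.101), Tlr2 at 0.44 ± 0.11 and Ptgs2 at 0.62 ± 0.16. The 7 MHC class II genes, which present antigen, had 0 calls (4 at an unadjusted p under 0.05), a median of 0.71 and 2 such intervals. H2-Aa read 10.03, 9.87 and 10.91 in KO and 11.34, 11.60 and 10.71 in CV, so that CV mouse 3 lay below KO mouse 3 (0.95 ± 0.29, adjusted p = 0.211). It was called at 1.29 without KO mouse 3. Of 5 Fc receptor genes, 12 of MHC class I and 13 of the toll-like receptor list 0 were called, and 1, 1 and 2 had an unadjusted p under 0.05.

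Of 36 autophagy and mTOR genes limma called 0 (4 at an unadjusted p under 0.05, median 0.01), with 33 intervals within 0.5 of 0. Of 21 cell cycle genes it called 0 (1 at an unadjusted p under 0.05, median 0.01), with 16 such intervals. Of 18 glycolysis genes 0 were called (4 at an unadjusted p under 0.05), and Ldhb, a lactate dehydrogenase chain, came nearest at -0.51 ± 0.10 (limma adjusted p = 0.0598). The 18 antioxidant genes held 0 calls (8 at an unadjusted p under 0.05), with Srxn1, which repairs peroxiredoxins, at 0.41 ± 0.08 (adjusted p = 0.0515) and the cystine carrier Slc7a11 at 0.50 ± 0.11. Of 14 eicosanoid genes 0 were called (5 at an unadjusted p under 0.05), with the leukotriene synthase Ltc4s at -0.44 ± 0.09 and the phospholipase Pla2g7 at 0.64 ± 0.14. In the list of amyloid processing and degradation Prnp, the prion protein gene, was the only call of 16 (0.47 ± 0.07). The 12 BCL2 family genes, 19 tetraspanins and 14 CD300 and Lilr-type receptors held 0 calls, with 3, 5 and 4 at an unadjusted p under 0.05. Across all genes tested the median SE was 0.09, and the interval lay within 0.5 of 0 for 9151 genes (84.8%).

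**Figure D5:**
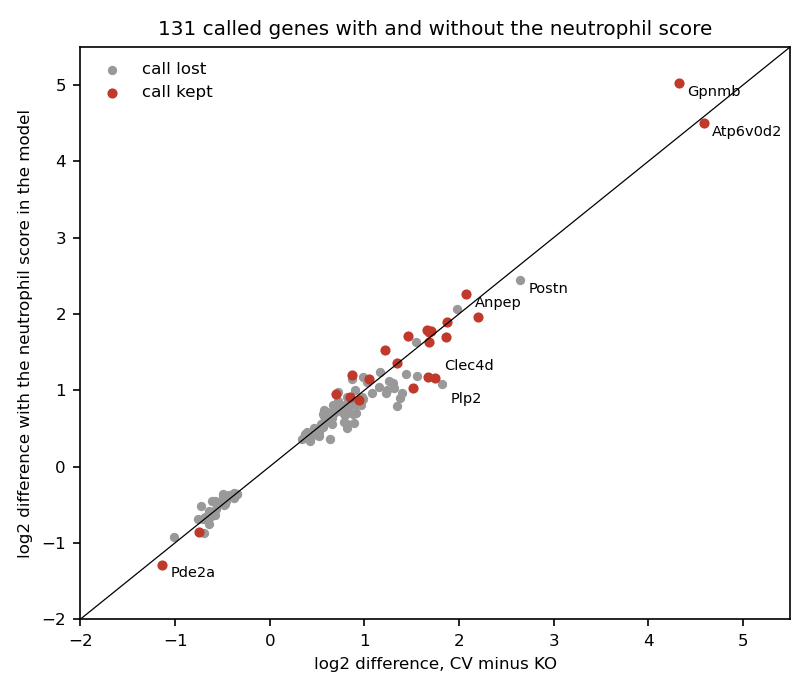
Each point is 1 of the 131 called genes, with the log2 difference CV minus KO on the horizontal axis and the same difference with the neutrophil score in the model on the vertical axis, and a line where both are equal. Red points kept their call (23 genes), and Plp2 and Clec4d lie below the line, whereas Gpnmb lies above it.

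Markers of other cells leaned to one side in several lists, and their part in the results was not tested. Beside the neutrophil genes given above, all 6 tested monocyte genes stood above 0 (median 0.79), with Fn1 and Itga4 called, and 4 were called without KO mouse 3. The monocyte chemokine receptor Ccr2 read 5.15, 5.59 and 5.95 in KO and 5.63, 6.32 and 5.57 in CV, and S100a6 7.82, 7.44 and 10.09 against 9.56, 10.49 and 9.98. All 7 border macrophage genes stood below 0 (median -0.33, 0 called, 3 at an unadjusted p under 0.05), with the scavenger receptor Cd163 at -0.37 ± 0.08 and Cbr2 at -0.75 ± 0.17. Oligodendrocyte genes stood below 0 in 7 of 7 (median -0.17) and astrocyte genes in 5 of 5 (median -0.25), with Mbp at -0.60 ± 0.15 and S100b at -0.78 ± 0.26. No neuronal, mast cell or red cell marker reached the level for testing. In bulk RNA a change in the number of cells and a change in RNA per cell cannot be told apart. With the neutrophil score in the model Gpnmb, Atp6v0d2, Itgax, Lpl, Olr1, Fabp5, Fn1, Anpep, Vim, Myof, Emp1, Crip1, Capg, Cd44, Clec4d, Pdcd1, Fgr, Gas2l3, Pla2g2d, Anxa5, Fam20c, Tmem154 and Pde2a kept their calls.

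Mice within a genotype differed in how far they stood from the other genotype. For each called gene the KO mouse nearest to the CV mice was mouse 1, the female, in 71 (54.2%), mouse 2 in 21 (16.0%) and mouse 3 in 39 (29.8%), against 35.1%, 26.9% and 37.9% of all genes tested. Differences taken in females and in males had the same sign for all 131 genes. For the 127 genes whose groups did not overlap no other outcome was possible, so this is no check of agreement between the sexes. The median of the higher genes was 0.81 in females and 0.84 in males, and that of the lower genes -0.59 and -0.56. The test of the difference between the sexes, which rests on 1 female per genotype, called 0 genes (434 at an unadjusted p under 0.05, smallest limma adjusted p = 0.987). Calls rested on particular mice to differing degrees. On leaving out each of the 9 arrays in turn, 44 of the 131 genes kept their call every time, among them Atp6v0d2, Gpnmb, Fn1, Postn, Itgax, Vim, Lpl, Olr1, Anpep, Fgr, Bhlhe40, Cxcr4, Pde2a, Crybb1, Mlph and Slc40a1. The calls of Arhgap26, Hadh, Nab2, Nrp1, Tcn2 and Tgfa were lost every time. Without KO mouse 3, 30 of the 131 calls were lost, among them those of Axl, Dkk2, Cd72, Lmna, Rhoc, Mir155, Bambi, Nrp1, Slamf9, Cd48, Kcna3, Rab27a, Slc39a12, Spg20, Rapsn and Thra, with adjusted p up to 0.10.

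For orientation, the level with R47H is given for Atp6v0d2 and Gpnmb, which had the largest rises, and for Igf1, chosen after its values were seen. These levels are set against the same KO arrays as the comparison above. Atp6v0d2 stood at 4.50 ± 0.40 (SD, n = 3) in KO, 6.32 ± 0.09 in R47H and 9.09 ± 0.28 in CV. Gpnmb stood at 6.70 ± 0.88, 9.45 ± 0.52 and 11.02 ± 0.20 in the same order. Igf1 stood at 7.72 ± 0.28, 8.56 ± 0.43 and 8.41 ± 0.24, so that the R47H and CV means differed by less than either SD.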

How the data were processed

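RNA of sorted CD45+ CD11b+ cells from 9 mice was measured on 9 Affymetrix Gene ST arrays, and the authors deposited 1 log2 value per probe set and array. The scale was read from the values (1.31 to 13.9, array medians 5.28 to 5.35). The sources used here do not give the background correction, the normalization or the summarisation, and the values were used as deposited. Of the probe sets 1621 with several gene symbols and 12146 with none were left out. Close paralogs can cross-hybridise, and no probe sequences were used here.

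The model (lmFit and eBayes of limma 3.58.1 in R 4.3.3) was fitted to all 9 arrays with terms for genotype and sex, leaving 5 residual and 3.73 prior degrees of freedom. Tests were two-sided, with Benjamini-Hochberg adjustment over 10795 genes. A permutation test of 3 mice against 3 cannot go below p = 0.10. The number of arrays limits the precision, and p-values measure the spread between these mice. The script was tested on simulated data. The neutrophil score of an array is the mean deviation of its neutrophil genes from their means over the 9 arrays. Since CV arrays and KO mouse 3 score high, this term raised the median SE of the 131 genes from 0.11 to 0.14.

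Named were Trem2, Tyrobp, all called genes other than predicted ones, and list members with the smallest p. Vwf, Blnk and the members of lists named for a role were chosen after their values were seen. The comparison, the 64 gene lists (48 of pathways, 16 of cell markers) and the alternatives were chosen with earlier results of these data known. Lists were described by counts and medians, without a test. Promoters and microRNAs came from RefSeq (GRCm38.p6), and 10769 tested genes matched. Alternatives were the sex term, the arrays in the fit, the filter, the choice of probe set, the scaling, the variance model, array weights, a replicate block, the neutrophil score and leaving out each array.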

Additional observations from a re-analysis of the deposited data

How the results depend on the processing

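All 131 genes kept their sign in each alternative in which they were tested. The count of called genes moved by more than 1.5 times with no sex term (77), with the CV and KO arrays alone (54), with each probe set tested by itself (15) and with the neutrophil score (23). On leaving out single arrays it ranged from 59 without CV mouse 1 to 172 without KO mouse 3. It was 74 and 75 without KO mouse 1 and mouse 2, and 70 and 67 without CV mouse 2 and mouse 3. It stayed within 1.5 times of 131 with no filter (100), a filter at the 75th percentile (112), the probe set of largest variance (123), equal array medians (134), quantile normalization (142), a trended robust variance (153) and array weights (130). Same-numbered mice correlated at 0.32, -0.04 and 0.21, so the numbers are not taken to pair them, and a replicate block in place of sex called 136 genes, 113 of them among the 131. The interaction with sex called 0 genes in all 7 alternatives run, and it could not be fitted without a female. Signs were followed for 238 genes, the called ones among them, and turned only in uncalled genes. These were Trem2, at -0.0622 to 0.0414 on leaving out each array, Syk, at -0.102 to 0.0454, and, with the neutrophil score, Trem1 (-0.31), Ccr2 (-0.0254) and S100a6 (-0.0380). Signs of other genes were not followed singly. With the score, which is built from neutrophil genes, the median of the 13 tested neutrophil genes went from 2.03 to -0.01. That of the 7 tested oligodendrocyte genes went from -0.17 to 0.14. The cause was not tested. Precision is limited by 3 arrays per genotype, and identical deposited values on 2 or more of the 9 arrays occurred in 5670 tested genes (52.5%) and 17 called genes (13%).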

Other observations

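Genes below the level for testing add to the picture of other cells. Ly6g, a surface marker of neutrophils, read 3.54, 3.88 and 6.09 in KO mice 1, 2 and 3 and 4.24, 6.67 and 6.10 in CV mice 1, 2 and 3. KO mouse 3 was thus level with CV mouse 3. No test was made of it.

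The receptor Trem1, which neutrophils carry and whose gene neighbours Trem2, read 5.42, 5.33 and 6.86 in KO and 6.31, 7.11 and 6.43 in CV, with KO mouse 3 above CV mice 1 and 3 (0.75 ± 0.45, limma adjusted p = 0.532). Mgst1, a glutathione transferase, read 5.01, 4.43 and 6.24 in KO and 6.31, 7.03 and 6.89 in CV, stood at 1.52 ± 0.37 (adjusted p = 0.112), and was called at 1.99 without KO mouse 3. Bcl2, which keeps cells from apoptosis, stood at 0.48 ± 0.11 (adjusted p = 0.106) and was called at 0.60 without KO mouse 3.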
